A study of Mus musculus with 2 samples.

Results

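The genes described here are 10 regulators of alternative splicing in muscle, Mbnl1, Mbnl2, Mbnl3, Celf1, Celf2, Rbfox2, Rbpms, Rbm24, Ptbp1 and Qk, out of 21829 genes with a value in the C2C12 libraries. They were chosen by name, with the WT and KO values of the same libraries already known, so every difference between the libraries given for them is a description without a test. C2C12 is an immortalised mouse myoblast line. One library of polyadenylated RNA came from WT cells (genotype WT) and 1 from a line (genotype GNE KO, here KO) in which Cas9 and a guide RNA had introduced a frameshifting indel into an early coding exon of Gne, the gene of the bifunctional enzyme that starts sialic acid synthesis. Both lines were untreated and were grown as myoblasts in DMEM with fetal bovine serum and gentamicin, and edited cells were isolated as single clones, so clonal differences and effects of the edit cannot be told apart.

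Splicing regulators bind short motifs in pre-mRNA and favour or block nearby exons. During muscle development the muscleblind-like (Mbnl), Rbfox, Quaking and Rbm24 proteins promote exons of differentiated muscle, whereas Celf proteins favour fetal patterns and Ptbp1 represses many muscle and neuronal exons. Muscleblind proteins are known for their sequestration by expanded CUG repeats of DMPK RNA in myotonic dystrophy. The deposited values are gene totals, which measure how much RNA of each regulator was present and not which exons were included.

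Levels are given as FPKM, fragments scaled to transcript length and library size, the unit inferred for the deposited values. A log2 difference is log2((KO + 1)/(WT + 1)), on which changes of low genes look smaller than they are. The column totals were 568543 in WT and 574253 in KO, and the read depth behind them is unknown. The comparison covered the 10542 genes whose mean reached 1 FPKM, and a gene is called when its difference exceeds 2-fold. Of these genes 2.84% were called higher in KO and 3.43% lower, together 6.27%, and the quartiles of their log2 differences were -0.21 and 0.23. Gne itself had 6.67 FPKM in WT and 7.34 FPKM in KO, which does not check the labels, since a frameshift need not lower the RNA. Of 12 myoblast markers 9 reached this mean. Of these 9, 6 were lower in KO and 3 higher, with 4 called lower and 1 called higher. The myogenic factor Myod1 had 59.97 FPKM in WT and was listed at 0 in KO, and Des went from 97.6 to 3.84 FPKM. The values of the other 7 are given at the end of the Results. Pax7 and Msc were listed at 0 in both, and Fgfr4 had 0.012 FPKM in WT and was listed at 0 in KO.

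Of the 10 regulators 9 passed this filter. Of these 9, 1 was called higher and 0 were called lower, against 2.84% and 3.43% of all genes compared. Rbpms, the one called, passed the filter through its KO value alone. The median log2 difference of the 9 genes was -0.056, beside 0.0061 for all genes compared. The 8 regulators above 0 in both libraries lay between -0.40 and 0.33, with a median of -0.097. Together these 8 genes summed to 597.7 FPKM in WT and 607.6 FPKM in KO. In a bulk library, fewer cells that express a gene and less of its RNA per cell cannot be told apart.

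**Figure D1:**
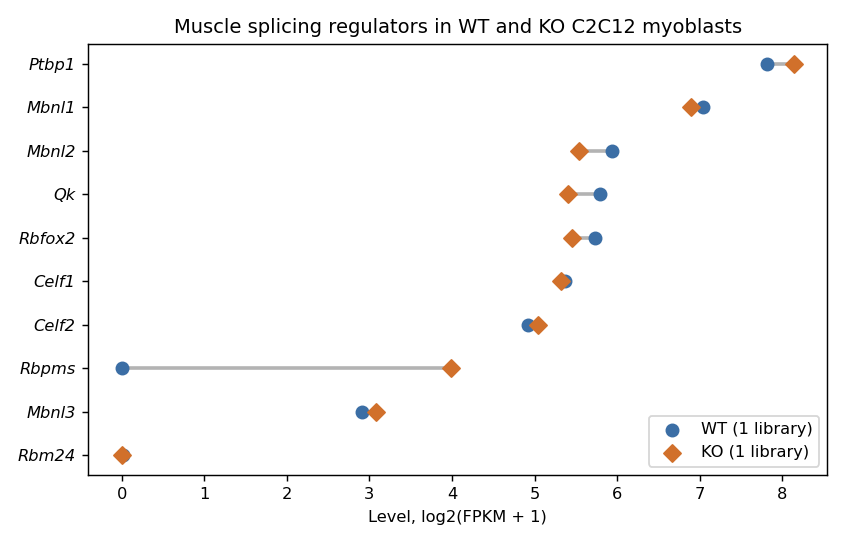
Level of each regulator on the log2(FPKM + 1) scale in the WT library (circles) and the KO library (diamonds), ordered by mean level, with a line joining the 2 libraries. Only Rbpms, listed at 0 in WT and at 14.9 FPKM in KO, is widely separated, and Rbm24 sits at the bottom in both.

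Promoter windows from RefSeq (GRCm38.p6) were found for 8 of the 10 regulators, and those of Ptbp1 and Mbnl3 are shown because these genes had the highest and the lowest mean level among the regulators above 0 in both libraries. Each is the 250 bases before the transcript start, 5′ to 3′, at chr10:79854182-79854431 on the plus strand for Ptbp1 and chrX:51205991-51206240 on the minus strand for Mbnl3. Capitals mark the E-box CANNTG, the motif read by Myod1 and other basic helix-loop-helix factors, which reads the same on both strands.
Ptbp1: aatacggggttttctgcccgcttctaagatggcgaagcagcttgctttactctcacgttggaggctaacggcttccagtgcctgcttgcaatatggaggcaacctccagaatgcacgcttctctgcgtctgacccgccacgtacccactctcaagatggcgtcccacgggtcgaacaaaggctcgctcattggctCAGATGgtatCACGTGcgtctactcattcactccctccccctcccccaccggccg
Mbnl3: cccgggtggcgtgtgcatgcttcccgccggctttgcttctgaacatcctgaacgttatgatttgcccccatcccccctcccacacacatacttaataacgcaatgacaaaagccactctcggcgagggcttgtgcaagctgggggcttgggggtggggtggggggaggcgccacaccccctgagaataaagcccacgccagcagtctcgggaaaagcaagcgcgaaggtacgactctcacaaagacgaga
The window of Ptbp1 holds 2 E-boxes and that of Mbnl3 holds 0, and 66.2% of all 32851 windows of this length hold at least 1. The 8 regulators have 13 windows, of which 7 hold an E-box, and these belong to 4 of the regulators. The GC content was 57.6% for Ptbp1 and 59.2% for Mbnl3, against a median of 52.4% over all windows.

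The muscleblind genes encode zinc finger proteins. Mbnl1, the main family member of skeletal muscle (chr3:60472559-60629750), had 130 FPKM in WT and 118 FPKM in KO. Its log2 difference was -0.14, between the quartiles of all genes. Mbnl2 (chr14:120275652-120431698), which shares many targets with Mbnl1, had 60.5 FPKM in WT and 45.7 FPKM in KO. At -0.40 this was the lowest log2 difference of the 9 regulators compared. Mbnl3 (chrX:51113494-51205990), linked to proliferating muscle precursors, had 6.51 and 7.46 FPKM, a log2 difference of 0.17. The family therefore kept the order Mbnl1, Mbnl2, Mbnl3 in both libraries. Mbnl1 made up 66.0% of the family sum in WT and 69.0% in KO, Mbnl2 30.7% and 26.7%, and Mbnl3 3.30% and 4.36%. The summed level was 197 FPKM in WT and 171 FPKM in KO, a ratio of 0.869.

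Celf1 and Celf2 bind GU-rich RNA, and Celf1 opposes Mbnl1 on several exons of fetal and adult muscle. Celf1 (chr2:90940259-91019497) had 40.5 FPKM in WT and 38.9 FPKM in KO. Celf2 (chr2:6539694-7396341) had 29.4 FPKM in WT and 31.9 FPKM in KO. Their log2 differences of -0.056 and 0.12 were the smallest in size of the 9 regulators compared. The level of Mbnl1 was 3.22 times that of Celf1 in WT and 3.04 times in KO. Among the paralogues, Celf4, best known from neurons, had 4.57 FPKM in WT and 0.13 FPKM in KO, a log2 difference of -2.30, and was called lower. With a pseudocount of 5 in place of 1 its difference was -0.90 and was not called. Celf5 had 0.834 and 0.344 FPKM, Celf6 0.04 and 0.063 FPKM, and Celf3 was listed at 0 in both. Celf4 held 6.07% of the family sum in WT and 0.182% in KO.

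**Figure D2:**
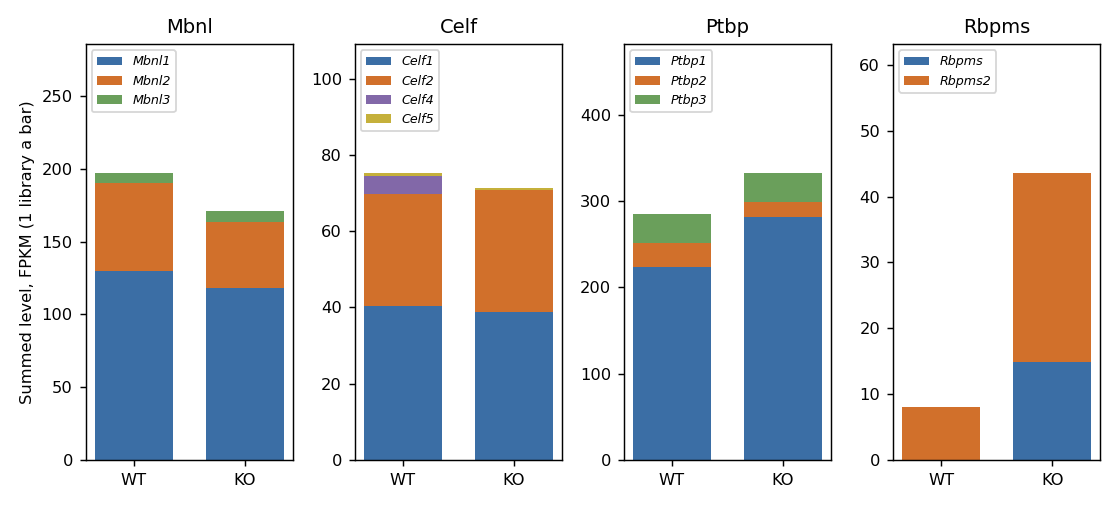
Summed level in FPKM of 4 families of splicing regulators, with 1 library a bar, each family on its own axis from 0, and colours for the paralogues that reach 0.5 FPKM. The Mbnl bar goes from 197 to 171 FPKM, the Ptbp bar from 285 to 333 FPKM and the Rbpms bar from 8.04 to 43.6 FPKM.

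Ptbp1, the polypyrimidine tract binding protein (chr10:79854432-79864435), was the most abundant of the 10 in both libraries. It had 224 FPKM in WT and 281 FPKM in KO, above 96.5% and 97.2% of the genes compared. The log2 difference of 0.33 was the highest after that of Rbpms and lay above the upper quartile of all genes. Ptbp2, whose RNA Ptbp1 is known to destabilise through exon skipping, had 27.6 FPKM in WT and 18.4 FPKM in KO, a log2 difference of -0.56. Ptbp3 had 32.8 and 33.0 FPKM. The ratio of Ptbp1 to Ptbp2 was therefore 8.12 in WT and 15.3 in KO. Neither gene was called, and a link between their levels was not tested.

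Qk encodes Quaking, a KH-domain protein of the STAR family (chr17:10206471-10319361). It had 54.2 FPKM in WT and 41.5 FPKM in KO, a log2 difference of -0.38. Its relative Khdrbs1, which encodes Sam68, had 70.5 and 75.4 FPKM. Khdrbs3 had 0.876 and 0.026 FPKM, below the filter, and Khdrbs2 was listed at 0 in both. Rbfox2 (chr15:77078990-77308434) had 52.3 FPKM in WT and 42.7 FPKM in KO, a log2 difference of -0.29. Of its paralogues, Rbfox1, typical of mature muscle, was listed at 0 in both libraries, and Rbfox3, the neuronal antigen NeuN, had 0.045 FPKM in WT and was listed at 0 in KO. Mbnl2, Qk and Rbfox2 lay below the lower quartile of all genes without being called.

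Rbm24, an RNA-binding protein of striated muscle (chr13:46418102-46431099), had 0.013 FPKM in WT and was listed at 0 in KO. No difference is given for it. Its paralogue Rbm38 had 16.7 FPKM in WT and 8.56 FPKM in KO, a log2 difference of -0.88, which was not called. Markers of fused myotubes were also low, with 2 of 20 past the filter. These were Tnnc1, with 6.66 FPKM in WT and 2.74 FPKM in KO, and Acta1, with 1.84 and 3.93 FPKM. Tnnc1 was called lower, at a log2 difference of -1.03, against 3.43% of all genes. It was not called with a pseudocount of 5 or with the median of its neighbours subtracted, and did not reach a mean of 5 FPKM. Acta1 was called higher only with a pseudocount of 0.1.

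Rbpms encodes an RNA-recognition-motif protein known as a splicing regulator of smooth muscle (chr8:33782643-33929922). The WT library listed it at 0 and the KO library at 14.9 FPKM, a level above 48.9% of the genes compared. No fold is given against a value of 0. Across the series 7 genes were listed at 0 in WT with at least 5 FPKM in KO, and 2 showed the reverse. Besides Rbpms, the 7 were Casd1, Smim20, Defb41, Sdr39u1, Pawr and Svep1. In KO they had 13.3, 13.5, 10.8, 8.47, 5.62 and 5.02 FPKM in that order. Whether the 0 of Rbpms is a failed estimate was not tested. Its paralogue Rbpms2, also a smooth muscle and heart protein, was above 0 in both libraries, with 8.04 FPKM in WT and 28.7 FPKM in KO. This was 3.57 times the WT level and a called log2 difference of 1.72. The pair summed to 8.04 FPKM in WT and 43.6 FPKM in KO, and Rbpms2 held 65.8% of the sum in KO.

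Of 8 smooth muscle markers 4 passed the filter. Of these, 2 were called higher and 1 lower, against 2.84% and 3.43% of all genes. Acta2, smooth muscle actin, had 213 FPKM in WT and 544 FPKM in KO, and Tagln, transgelin, had 20.3 and 54.5 FPKM. Des, shared with skeletal muscle, was the one called lower, and Synpo2 had 3.86 FPKM in WT and 1.69 FPKM in KO. The other 4 were below the filter. Lmod1 had 0.086 FPKM in WT and 1.49 FPKM in KO, a log2 difference of 1.20 that would be called without a filter. Myh11 had 0.009 and 0.02 FPKM, Cnn1 0.043 and 0.157 FPKM, and Myocd was listed at 0 in both. The summed level of the 8 markers was 335 FPKM in WT and 605 FPKM in KO, and their part in the values of Rbpms and Rbpms2 was not tested. Among fibroblast markers 3 of 7 passed the filter, and Col1a1 had 9.66 FPKM in WT and 273 FPKM in KO, Postn 0.44 and 33.9 FPKM and Pdgfra 10.8 and 12.3 FPKM. Dcn, below the filter, had 0.272 and 1.68 FPKM, a log2 difference of 1.08 that would be called without a filter, and Thy1, Lum and Tcf21 were listed at 0 in both. Of 8 neural markers 2 passed, Tubb3 with 18.0 FPKM in WT and 0.997 FPKM in KO and Map2 with 4.25 FPKM in WT and listed at 0 in KO. Of 7 epithelial markers 0 passed, and of 8 endothelial and blood markers 2 did, Cd68 with 2.85 and 1.06 FPKM and Hba-a1 with 1.86 and 3.19 FPKM.

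To show differences shared along a chromosome, each regulator was set beside the median of the compared genes within 5 Mb on either side. The 23 neighbours of Rbpms had a median log2 difference of -0.018, and the 13 of them lying at least in part within 1 Mb of it ranged from -0.30 to 0.41. No other gene with a value overlaps Rbpms in the RefSeq annotation. The value of Ptbp1, 0.33, lay close to the median of 0.39 over its 145 neighbours on chromosome 10. Rbfox2, at -0.29, lay close to the -0.40 of its 144 neighbours on chromosome 15. With these medians subtracted the sign turned for both, to -0.063 for Ptbp1 and 0.11 for Rbfox2, and also for Celf1, to 0.095. By contrast, Mbnl1, Mbnl2 and Qk were lower in KO while their neighbours had medians of 0.29, 0.16 and 0.14. After the subtraction they had -0.43, -0.55 and -0.52.

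**Figure D3:**
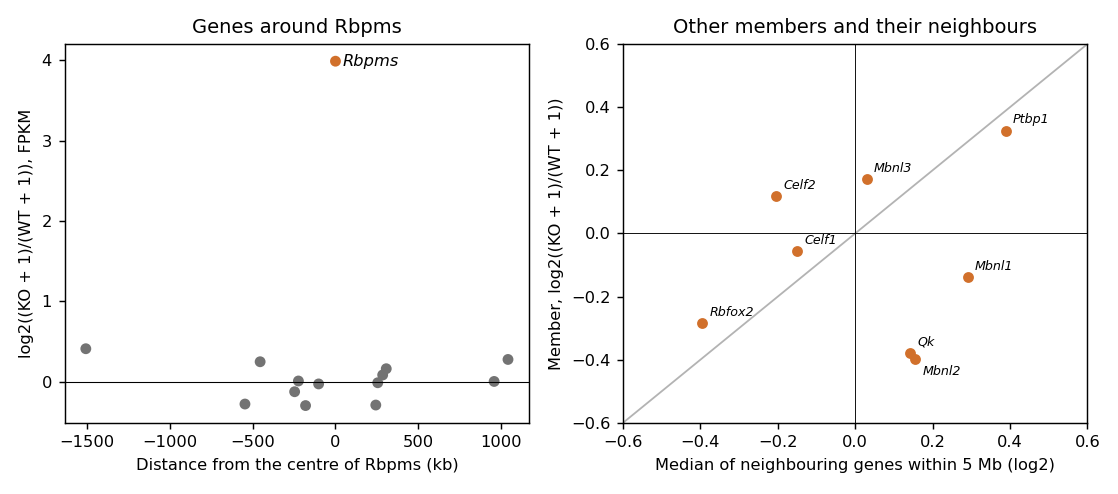
Left, log2 difference between KO and WT of the genes compared around Rbpms against distance from its centre in kb; the height of Rbpms depends on the pseudocount, as its WT value is 0. Right, log2 difference of the other 8 regulators past the filter against the median of their neighbours within 5 Mb, with a diagonal of equal values. Ptbp1 and Rbfox2 lie near the diagonal, and Mbnl1, Mbnl2 and Qk lie below it.

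The wider splicing machinery was compared through lists of its parts. Of 122 other splicing genes, 101 passed the filter, of which 1 was called higher and 1 lower, Rbpms2 and Celf4, against 2.84% and 3.43% of all genes. Their median log2 difference was -0.081, with 34 genes above 0 and 67 below. Among 25 hnRNP proteins, the abundant pre-mRNA packaging factors, 0 were called, against 6.27% of all genes, and the median was -0.13. Hnrnpm, at 189 FPKM in WT and 130 FPKM in KO, and Hnrnph3, at 16.1 and 11.997 FPKM, were the lowest on the log2 scale. Pcbp3, at 4.70 and 6.80 FPKM, and Hnrnpa0, at 195 and 227 FPKM, were the highest. The log2 difference of Pcbp3, 0.45, lay close to the median of 0.40 over its neighbours within 5 Mb. That of Hnrnpa0 was 0.22, beside 0.024 for its neighbours. Of 12 SR proteins past the filter, which promote exon use, 0 were called, against the same 6.27%, and the median was -0.054. Srsf4, with 31.3 FPKM in WT and 23.7 FPKM in KO, and Srsf5, with 166 and 132 FPKM, were the lowest, and Srsf3, with 186 and 199 FPKM, and Srsf9, with 58.0 and 61.8 FPKM, the highest.

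None of the 32 core spliceosome genes was called, against 6.27% of all genes, and their median was -0.047. That share covers genes of every level from a mean of 1 FPKM, and most of the 32 lie well above this. For the 4106 genes with a mean of 20 to 300 FPKM the quartiles of the log2 difference were -0.17 and 0.20, and no share called was computed. Sf3a2 and Sf3b5 of the U2 particle had 51.1 and 10.3 FPKM in WT and 78.6 and 12.8 FPKM in KO. Their log2 differences were 0.61 and 0.28, beside medians of 0.38 and 0.11 over their neighbours within 5 Mb. Eftud2 of the U5 particle had 86.4 and 58.0 FPKM, and the Sm protein gene Snrpd3 had 87.1 and 67.4 FPKM. Of 7 kinases of SR proteins past the filter 0 were called, against 6.27% of all genes. In KO 6 were lower, with Clk2 at 16.3 and 11.5 FPKM and Clk4 at 14.7 and 11.1 FPKM. Srpk2, at 11.9 and 12.1 FPKM, was the one higher. Of 19 other tissue splicing regulators past the filter 0 were called, again against 6.27% of all genes. Rbm47, just below the filter, had 0.043 FPKM in WT and 1.77 FPKM in KO, a log2 difference of 1.41 that would be called without a filter. Rbm20, which controls titin exons in heart, had 10.7 and 15.9 FPKM, Tial1 22.4 and 31.5 FPKM, Tia1 22.1 and 17.3 FPKM, and Fmr1 58.2 and 46.9 FPKM.

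**Figure D4:**
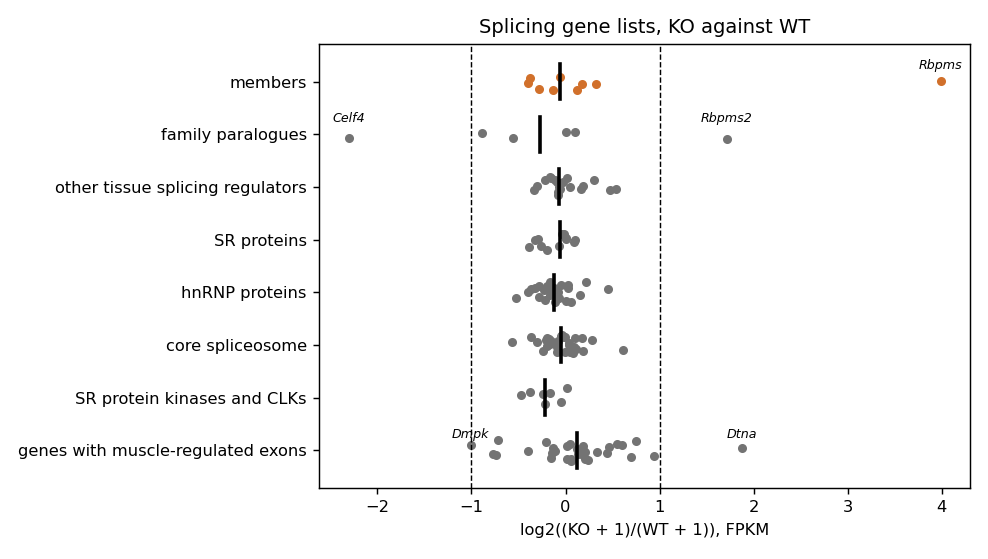
Log2 difference between KO and WT of the genes past the filter in 8 lists, with 1 point a gene, a vertical bar at each median and dashed lines at the 2-fold limits. The splicing lists centre between -0.28 and -0.047, and Rbpms, Rbpms2 and Celf4 are the splicing genes beyond the limits.

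A list of genes with muscle-regulated exons was read for total RNA only, and which regulator acts on each gene was not examined. Of 44 listed, which include Mbnl1, Mbnl2 and Fxr1 themselves, 32 passed the filter, with a median of 0.12. Of these 32, 1 was called higher and 1 lower, close to the 2.84% and 3.43% of all genes. Dtna, the dystrobrevin gene, had 1.15 FPKM in WT and 6.89 FPKM in KO, a log2 difference of 1.87 that was not called with a pseudocount of 5. Dmpk, the kinase gene of myotonic dystrophy, had 65.0 FPKM in WT and 31.8 FPKM in KO, a log2 difference of -1.01 just beyond the limit, which was not called with a pseudocount of 5 or with the median of its neighbours subtracted. Tpm1, a tropomyosin with many alternative exons, had 284 and 546 FPKM, a log2 difference of 0.94 just inside it. Trim54 had 1.61 FPKM in WT and 0.524 FPKM in KO. Among late muscle genes of the list, Ttn had 0.028 and 0.006 FPKM, Neb 0.013 and 0.08 FPKM, and Cacna1s was listed at 0 in both.

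Among the other myoblast markers, Cdh15, a cadherin of muscle precursors, had 16.6 FPKM in WT and 0.701 FPKM in KO. Its neighbours within 5 Mb had a median log2 difference of 0.33, the same as those of the neural marker Tubb3. Whether the lower values of Cdh15 and Tubb3 are separate changes was not tested. The acetylcholine receptor gene Chrna1 had 15.3 and 0.917 FPKM. Myf5, another myogenic factor, had 9.14 FPKM in WT and 20.3 FPKM in KO, a difference that was not called with a pseudocount of 5 or with the median of its neighbours subtracted. Itga7 had 47.4 and 28.4 FPKM, Vcam1 32.1 and 51.3 FPKM, Ncam1 14.7 and 13.0 FPKM and Megf10 33.5 and 33.9 FPKM. Of the 9 markers past the filter 4 were called lower, Myod1 with its listed 0 among them, and 1 higher, against 3.43% and 2.84% of all genes.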

How the data were processed

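Gene expression was measured in 1 library of each line. The authors deposited 1 value per gene symbol, taken here as FPKM, although the headers name no unit and TPM restricted to these genes would look the same. The methods name TrimGalore, STAR and RSEM with GRCm39, whereas the processing notes of the submitters list Trim Galore 0.6.6, STAR 2.7.9a, RSEM 1.3.3 and GRCm38. No counts or depths were used here, so no counting interval is given.

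Of 21853 rows, 24 repeated a symbol and the higher was kept. Values were used as deposited, with a pseudocount of 1, a filter at a mean of 1 FPKM and a limit of 2-fold. With 1 library per group no test was made. Gene positions came from RefSeq on GRCm38.p6, which held 20844 of the 21829 symbols, and 10363 compared genes had a position and a compared neighbour. The calculation was checked on simulated data, which says nothing of the error between replicates. The regulators and gene lists were chosen with earlier results of these data known. Named from each list were the 2 highest and 2 lowest differences past the filter, all paralogues, and the myoblast markers past the filter. Others, such as Myh11, Cnn1, Lmod1, Dcn, Rbm47, Ttn and the markers listed at 0, were named after their values were seen. Tried in place of these settings were a filter at a mean of 5 FPKM or none, a pseudocount of 0.1 or 5, summed repeated symbols, median-of-ratios scaling and subtraction of the neighbours' median. Python 3.11.15, numpy 2.4.6 and pandas 2.3.3 were used.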

Additional observations from a re-analysis of the deposited data

How the results depend on the processing

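The regulators were counted under 7 alternatives, and each gave 1 called higher (Rbpms) and 0 called lower. With Rbpms listed at 0 in WT and at 14.9 FPKM in KO, these settings could hardly undo its call. Their agreement therefore adds no support to it. Their median log2 difference of -0.056 became 0.095 with the median of neighbouring genes subtracted. That alternative also turned the sign of Celf1 to 0.095, of Rbfox2 to 0.11 and of Ptbp1 to -0.063, none of them called, and the other regulators kept their sign under each alternative. Over all genes, a pseudocount of 5 gave 102 higher and 176 lower genes in place of 299 and 362, and a filter at a mean of 5 FPKM, which leaves fewer genes, gave 145 and 221. Celf4 was no longer called with a pseudocount of 5, at -0.90, and, like Dtna, did not reach a mean of 5 FPKM. Dmpk and Dtna were not called with a pseudocount of 5, and Dmpk was not called with the median of neighbouring genes subtracted. The median-of-ratios factor was 1.01. Rbm24 entered only without a filter. TMM scaling was not run because the values are not counts. With 1 library per group no replicate could be left out. No paired analysis was possible because each group held 1 library. Read depth is unknown, so how far counting error reaches for low genes such as Rbm24 cannot be given.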
